A study of Mus musculus with 4 samples.

Results

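The cells described here were fibroblasts of brown adipose tissue (BAT) that carried the transcripts of Has1, Ptx3 and Tnfaip6, 2516 of 28887 quality-passing cells in 4 single-cell RNA-seq (scRNA-seq) libraries. A unique molecular identifier (UMI) marks 1 captured transcript molecule. A cell was a stromal cell when Col1a1, Col1a2, Col3a1, Dcn and Gsn together reached at least 60 UMIs per 10000 UMIs of the cell, with under 20 of the macrophage transcripts Lyz2, C1qa, C1qb and C1qc and under 20 of the endothelial transcripts Cdh5, Cldn5 and Gpihbp1. It was an activated fibroblast, the working name used here, when Has1, Ptx3 and Tnfaip6 together reached at least 5 UMIs per 10000. The measured levels of these genes therefore chose the cells, and the difference in these 3 genes, or in any gene, between the chosen cells and the other 10189 stromal cells of the same libraries is a description and was given no test.

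The libraries held the stromal vascular fraction (SVF), the cells left after adipocytes are removed, of BAT from mice labelled as strain C57BL6/J. WT mice were 10 weeks old, db/db 8w and db/db 16w mice were 8 and 16 weeks old and were mutant for the receptor of leptin, and HFD mice were on a high-fat diet and were labelled as 10 weeks old. By the study's methods the diet replaced the normal diet at 10 weeks of age and lasted 10 weeks, so their age stays unsettled by the label. The methods also state that mice were male unless otherwise stated, that tissue was taken after fasting, that the surrounding white fat was removed, and that cells were loaded after a sort whose gate was not given for these libraries. The study's figure legends give each library as a pool of 3 mice. Each group was thus 1 library, and a difference between groups cannot be told apart from a difference between libraries.

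HAS1 is an enzyme of the plasma membrane that makes hyaluronan, a long sugar polymer of the extracellular matrix. TSG-6, the protein of Tnfaip6, moves heavy chains of the serum inter-alpha inhibitor onto hyaluronan, and the pentraxin PTX3 binds these chains and helps to cross-link the matrix. Fibroblasts make all of these proteins when inflammatory cytokines act on them, and the metallothionein Mt2, a small metal-binding protein, is induced by metals, glucocorticoids and cytokines.

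The promoters of these genes and of Cxcl1, the gene that led the ranking given below, are shown because the rule, its marker list and the ranking turn on these 5 genes. Has1 (ENSMUSG00000003665) is a protein-coding gene on the minus strand of chromosome 17, from 17843323 to 17855205 of GRCm38, Ptx3 (ENSMUSG00000027832) lies on the plus strand of chromosome 3 from 66219910 to 66225805, and Tnfaip6 (ENSMUSG00000053475) on the plus strand of chromosome 2 from 52038009 to 52056686. Mt2 (ENSMUSG00000031762) lies on the plus strand of chromosome 8 from 94172664 to 94173568, and Cxcl1 (ENSMUSG00000029380) on the plus strand of chromosome 5 from 90891241 to 90893115. Each line gives the 250 bases before the RefSeq start of the gene (build GRCm38.p6), read 5′ to 3′ on the gene's strand, with matches to the searched motifs in capitals. The intervals were chr17:17855189-17855438 for Has1, chr3:66219637-66219886 for Ptx3, chr2:52037863-52038112 for Tnfaip6, chr8:94172368-94172617 for Mt2 and chr5:90890995-90891244 for Cxcl1.
Has1: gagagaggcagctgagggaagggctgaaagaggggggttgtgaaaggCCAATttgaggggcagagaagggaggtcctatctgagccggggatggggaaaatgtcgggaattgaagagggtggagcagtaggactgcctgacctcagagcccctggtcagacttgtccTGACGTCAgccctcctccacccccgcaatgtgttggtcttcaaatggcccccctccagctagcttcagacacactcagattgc
Ptx3: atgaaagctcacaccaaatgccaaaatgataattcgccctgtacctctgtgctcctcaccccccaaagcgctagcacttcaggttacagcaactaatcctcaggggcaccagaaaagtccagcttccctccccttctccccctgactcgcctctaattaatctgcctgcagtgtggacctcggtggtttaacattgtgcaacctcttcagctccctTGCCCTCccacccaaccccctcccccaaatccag
Tnfaip6: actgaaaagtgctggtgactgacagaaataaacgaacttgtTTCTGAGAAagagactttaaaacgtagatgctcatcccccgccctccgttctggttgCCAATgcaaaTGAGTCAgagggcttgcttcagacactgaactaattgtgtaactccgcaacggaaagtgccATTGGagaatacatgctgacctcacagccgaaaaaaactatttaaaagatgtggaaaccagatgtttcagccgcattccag
Mt2: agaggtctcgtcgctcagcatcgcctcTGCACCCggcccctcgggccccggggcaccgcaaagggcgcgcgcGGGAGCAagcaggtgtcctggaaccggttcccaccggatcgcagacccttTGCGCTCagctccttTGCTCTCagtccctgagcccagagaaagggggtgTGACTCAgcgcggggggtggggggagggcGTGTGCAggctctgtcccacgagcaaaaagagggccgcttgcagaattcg
Cxcl1: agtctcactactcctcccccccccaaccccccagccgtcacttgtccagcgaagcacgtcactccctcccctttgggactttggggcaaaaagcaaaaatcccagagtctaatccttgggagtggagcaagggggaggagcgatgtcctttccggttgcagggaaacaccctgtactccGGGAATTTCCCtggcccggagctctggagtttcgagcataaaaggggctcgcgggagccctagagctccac
The motifs were searched on both strands of these windows. The cyclic AMP response element TGACGTCA was found 1 time before Has1, starting 83 bases from the start, and in 1.55% of the 32851 promoter windows of this length. The AP-1 motif TGANTCA was found 1 time before Tnfaip6 and 1 time before Mt2, and in 6.75% of all windows. The STAT motif TTCNNNGAA was found 1 time, before Tnfaip6, and in 7.02% of windows. TGCNCNC, a looser pattern than the core of the metal response element, was found 5 times before Mt2 and 1 time before Ptx3, but also in 44.4% of windows. The core itself has A or G after TGC, and the Ptx3 match, TGCCCTC, has C there. The NF-kB motif was found before Cxcl1 only among these 5, as 2 overlapping matches on the 2 strands, and in 3.90% of windows. CCAAT was found before Has1 and Tnfaip6 and in 33.8% of windows, and TATAAA before none of the 5 and in 12.4% of windows. These matches are descriptions of letters, not of bound sites, and TGCNCNC and CCAAT are common.

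The libraries differed in depth and quality. They held 6517 to 18306 barcodes and 28504069 to 61828295 UMIs, and 31.3% (HFD) to 89.5% (db/db 16w) of barcodes passed the quality limits. The limit of 15% mitochondrial UMIs was reached by 68.5% of HFD barcodes, 35.6% of db/db 8w, 28.0% of WT and 1.04% of db/db 16w barcodes. The db/db 16w library stood apart, with Xist, a transcript of the inactive X chromosome, at 207 CPM (counts scaled to a library total of 1e6 UMIs), against 0.187 to 0.688 CPM in the other 3. This goes against the methods' statement that the mice were male, so the origin of this library is open to doubt and each db/db 16w value is that of the library with this label. It also held the fewest activated fibroblasts, 48, so the counts over libraries below are also given without it. Pairs of libraries shared 16 to 97 barcode sequences, of which 7 to 25 passed quality control in both and 0 were activated fibroblasts in both. Predicted doublets, barcodes that may hold 2 cells, were kept and removed in an alternative, and they were 9.54% of activated and 6.18% of other stromal cells in WT, 13.6% and 11.4% in db/db 8w, 2.08% and 5.59% in db/db 16w, and 7.88% and 10.8% in HFD.

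The chosen cells carried fibroblast transcripts that the rule did not use. The 11 further fibroblast markers, among them Pdgfra, Lum, Fbn1, Dpt and Col6a1, were measured in every library, and together they reached 8973 CPM in activated against 10394 CPM in other stromal cells of WT, 13288 against 14878 in db/db 8w, 15352 against 14661 in db/db 16w and 13921 against 13230 in HFD. None of the 11 differed by 2-fold in any library. Of all genes measured by the limits given below, 112 were 2-fold higher and 4 lower of 6073 in WT. The same counts were 109 and 8 of 6125 in db/db 8w, 84 and 315 of 5637 in db/db 16w and 28 and 7 of 6276 in HFD. The lack of 2-fold differences thus does not set these 11 apart from most genes. Pdgfra, a receptor that marks fibroblasts and adipocyte precursors, stood at 606 CPM in activated and 683 CPM in other stromal cells of WT, at 495 and 687 in db/db 8w, at 972 and 712 in db/db 16w, and at 411 and 509 in HFD.

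Markers of other cell types differed in level between the libraries. The 7 mesothelial markers (Msln, Upk3b and others) summed to 3.70 to 12.2 CPM in activated cells, where the highest value was 2 UMIs in db/db 16w, and the 6 lymphocyte markers to 0 to 7.01 CPM. The 10 macrophage markers summed to 67.6 CPM in activated against 69.1 CPM in other stromal cells of WT, 243 against 257 in db/db 8w, 42.5 against 400.3 in db/db 16w and 361 against 432 in HFD. The 8 endothelial markers summed to 48.6 to 223 CPM and in no library were they higher in activated cells than in other stromal cells. The 4 haemoglobin transcripts, which come from red blood cells, were lower in activated cells of the 2 db/db libraries, at 140 against 784 CPM in db/db 8w and 170 against 3477 CPM in db/db 16w. The part of these other cells in the results was not tested.

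**Figure D1:**
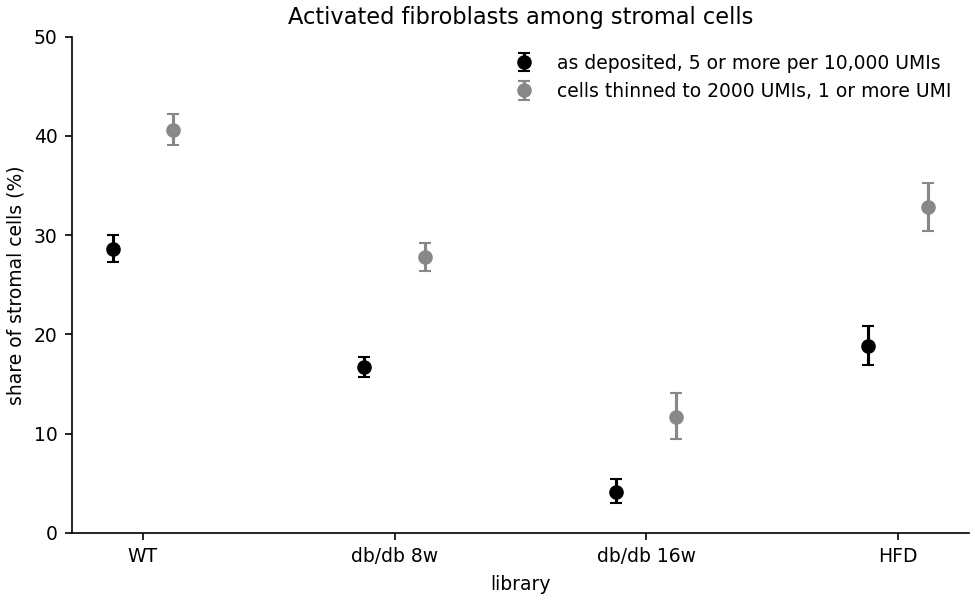
Share of stromal cells that were activated fibroblasts in each library (y axis, percent), by the rule as given (black) and after each stromal cell was thinned to 2000 UMIs and called with 1 or more UMI of the 3 genes (grey). Bars are exact 95% intervals that cover counting error only. WT was highest on both readings, at 28.6% and 40.6%, and db/db 16w lowest, at 4.08% and 11.6%.

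Activated fibroblasts made up the largest part of the stromal cells in WT and the smallest in db/db 16w. They were 1226 of 4284 stromal cells in WT (28.6%, exact Clopper-Pearson 95% interval 27.3 to 29.998%), 950 of 5693 for db/db 8w (16.7%, 15.7 to 17.7%), 48 of 1176 for db/db 16w (4.08%, 3.02 to 5.38%) and 292 of 1552 for HFD (18.8%, 16.9 to 20.8%). Against WT the share was lower by 11.9 percentage points in db/db 8w, by 24.5 in db/db 16w and by 9.80 in HFD, and all intervals of these differences lay below 0. The intervals of db/db 8w and HFD overlapped. Of all quality-passing cells they were 20.6% in WT, 8.16% in db/db 8w, 0.823% for db/db 16w and 5.35% in HFD, and these values depend also on how many other cells each library held. These intervals leave out how mice vary, and the sort before loading can set such shares.

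Depth moved with this share. In a cell of at most 2000 UMIs 1 UMI of the 3 genes is enough to pass the rule. Of the activated cells, 89 of 1226 in WT, 218 of 950 in db/db 8w, 21 of 48 in db/db 16w and 5 of 292 in HFD had passed on 1 UMI. With every stromal cell thinned to 2000 UMIs, after 440, 1708, 394 and 31 shallower cells were left out for WT, then db/db 8w, then db/db 16w and then HFD, a UMI of the 3 genes was left in 1562 of 3844 cells in WT (40.6%, 39.1 to 42.2%), 1106 of 3985 for db/db 8w (27.8%, 26.4 to 29.2%), 91 of 782 for db/db 16w (11.6%, 9.47 to 14.1%) and 499 of 1521 for HFD (32.8%, 30.5 to 35.2%). WT stayed highest and db/db 16w lowest. HFD was above db/db 8w on this reading, but the 3 genes together stood at 323 CPM over all stromal cells in HFD and at 484 CPM in db/db 8w, so no order was read between these 2 libraries. The same level was 952 CPM in WT and 88.7 CPM in db/db 16w.

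**Figure D2:**
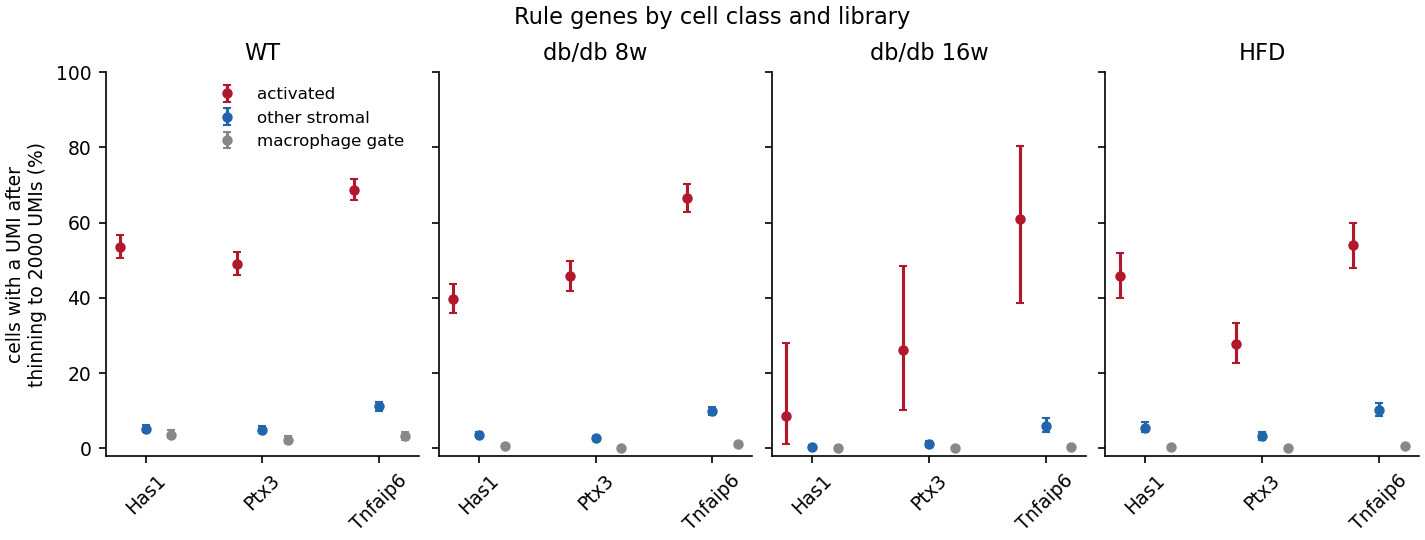
Percent of cells (y axis) with a UMI of Has1, Ptx3 or Tnfaip6 (x axis) after thinning to 2000 UMIs, in activated fibroblasts, other stromal cells and cells of the macrophage gate, 1 panel per library, with exact 95% intervals. The activated cells were chosen on these genes, and the macrophage gate is shown for comparison, at no more than 3.70% for 1 gene, in WT.

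Free RNA in the droplets can place such UMIs in cells that do not express a gene. The macrophage gate (cells with at least 20 UMIs per 10000 of the macrophage transcripts) was set beside the stromal cells for comparison. Whether its cells express these genes themselves was not tested. At 2000 UMIs the share of these cells with a UMI of any of the 3 genes was 9.34% in WT, 2.03% for db/db 8w, 0.511% for db/db 16w and 1.22% in HFD, at a median depth of 4933 to 5723 UMIs, against 6349, 3606, 2736 and 4914 UMIs in other stromal cells. The other stromal cells stood at 19.6%, 15.6%, 8.70% and 19.3%, above the macrophage gate in each library. How much of this was free RNA was not tested, since these cells differed in depth from those of the gate. Of all quality-passing cells that met the threshold of 5 per 10000, 94.1% in WT, 74.5% in db/db 8w, 88.9% for db/db 16w and 94.2% in HFD were stromal cells by the rule.

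The 3 genes that chose the cells were not held in equal measure. Has1 stood at 788 CPM (exact Poisson interval 772 to 804) in the activated cells of WT, at 508 CPM in db/db 8w, at 103 CPM (60.2 to 165) in db/db 16w and at 407 CPM in HFD. Ptx3 stood at 791, 626, 188 and 275 CPM in the same order, and Tnfaip6 at 1006, 884, 741 and 461 CPM. Tnfaip6 was thus closest between the libraries, and Has1 was the rarest in db/db 16w, where 4 of 48 cells held 17 UMIs and 1 cell 7 of them. In the other stromal cells Has1 stood at 2.66 to 29.9 CPM, Ptx3 at 6.04 to 24.7 CPM and Tnfaip6 at 42.5 to 66.6 CPM.

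All 3 genes were found together in 567 of the 1226 activated cells of WT (46.2%), in 214 of 950 in db/db 8w (22.5%), in 1 of 48 in db/db 16w (2.08%) and in 68 of 292 in HFD (23.3%). Cells with Tnfaip6 alone were 132 in WT (10.8%), 223 in db/db 8w (23.5%), 32 for db/db 16w (66.7%) and 39 in HFD (13.4%). Depth moved with these patterns, for WT cells with all 3 genes had a median of 13229 UMIs and those with Tnfaip6 alone 2803. The activated cells were deeper than the other stromal cells in WT (median 9117 against 6349 UMIs), db/db 8w (4778 against 3606) and HFD (5484 against 4914) and shallower in db/db 16w (1932 against 2736), and their median mitochondrial share was lower in each library, at 2.79% against 3.79%, 4.12% against 5.29%, 0.322% against 0.427% and 9.08% against 9.90% for WT, then db/db 8w, then db/db 16w and then HFD. The part of depth and of the mitochondrial share in the results below was not tested.

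A gene that was held out of the split showed how far the 3 went together. Of WT stromal cells thinned to 2000 UMIs, Has1 was found in 464 of 1337 cells with a UMI of Ptx3 or Tnfaip6 (34.7%, 32.2 to 37.3%) and in 230 of 2507 cells without (9.17%, 8.07 to 10.4%). The corresponding values were 20.3% and 6.26% in db/db 8w and 23.6% and 9.64% in HFD. In db/db 16w they were 2.74% (2 of 73 cells) and 0.423% (3 of 709), with overlapping intervals. Ptx3 was found in 35.4% of WT cells with and 8.63% without the other 2 genes, in 23.3% and 4.86% in db/db 8w, in 3.23% and 1.94% in db/db 16w and in 13.5% and 5.72% in HFD. Tnfaip6 was found in 51.5% and 17.4%, in 41.6% and 14.1%, in 19.0% and 7.23%, and in 35.3% and 17.0% in the same order. The intervals did not overlap in WT, db/db 8w and HFD for any of the 3 genes, and they overlapped in db/db 16w for each. They cover counting error over cells, which are not replicates. The 3 genes had been chosen together with earlier results of these data known, so these values are a description and no test.

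The threshold fell within a continuous range of levels. In the activated cells the 3 genes together had a median of 16.1 UMIs per 10000 in WT, 12.5 for db/db 8w, 7.44 for db/db 16w and 8.94 for HFD, and the highest cell stood at 159, 132, 38.2 and 54.9. Just inside it, at 5 to under 6 per 10000, were 117 cells in WT, 97 in db/db 8w, 14 for db/db 16w and 53 in HFD, and just outside it, at 4 to under 5, were 150, 142, 23 and 73. Mt2 stood at 962 CPM in the cells just inside and at 729 CPM in those just outside in WT, at 710 and 679 in db/db 8w, at 1454 and 1236 in db/db 16w and at 175 and 136 in HFD.

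For the other genes the UMIs of all activated cells of a library were summed and set against those of its other stromal cells, as CPM, and the log2 ratio was taken after 10 CPM were added to both sides, which understates the ratio of low genes. A gene was measured when it reached 20 CPM and 10 UMIs on 1 side or the other. Of measured genes, 1.84% in WT (112 of 6073), 1.78% in db/db 8w (109 of 6125), 1.49% in db/db 16w (84 of 5637) and 0.446% in HFD (28 of 6276) were at least 2-fold higher in activated cells, 1.52% (86 of 5673) were so in both WT and db/db 8w, and 0.272% (13 of 4779) in all 4 libraries, among them the 3 genes of the rule. These shares are given here to be set beside the counts of the gene lists below. Those counts describe the lists and were given no test, because the rule had used the same contrast. Without db/db 16w the count over the other 3 libraries was 25, all 13 among them, and without HFD it was 39, again with all 13. The median log2 ratio of all measured genes was −0.09, −0.08, −0.07 and −0.03 for WT, then db/db 8w, then db/db 16w and then HFD.

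**Figure D3:**
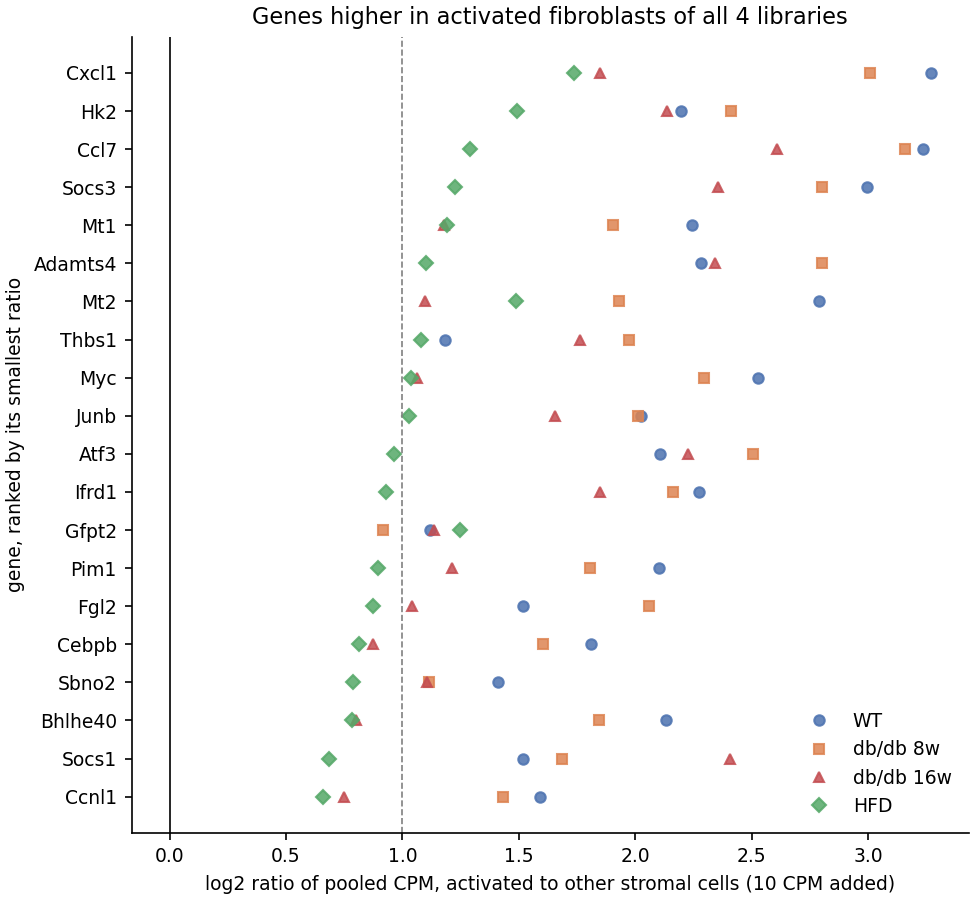
Log2 ratio (x axis) of pooled CPM in activated to other stromal cells, 10 CPM added, for the 20 genes with the largest smallest ratio over the 4 libraries, 1 point per library. The dashed line marks 2-fold. The HFD point is the lowest for 17 of the 20 genes, and 10 genes from Cxcl1 to Junb lie beyond the line in each library.

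Outside the rule, 10 genes were at least 2-fold higher in the activated cells of every library: Cxcl1, Hk2, Ccl7, Socs3, Mt1, Adamts4, Mt2, Thbs1, Myc and Junb. They encode a neutrophil chemokine, a hexokinase, a monocyte chemokine, an inhibitor of cytokine signalling, both metallothioneins, a protease of matrix proteoglycans, the matrix glycoprotein thrombospondin and the transcription factors MYC and JUNB. Cxcl1 stood at 1156 CPM in activated and 111 CPM in other stromal cells of WT, at 1802 and 216 in db/db 8w, at 237 and 58.7 in db/db 16w and at 883 and 258 in HFD, and its log2 ratios were 3.27, 3.01, 1.85 and 1.74. The range of the activated cells over the 4 libraries overlapped that of the other stromal cells, because db/db 16w activated cells stood below HFD other stromal cells. Hk2, whose product starts the use of glucose, was the most even of the 10 in its level in activated cells, with 146, 165, 182 and 157 CPM in activated and 24.0, 22.9, 33.8 and 49.2 CPM in other stromal cells in the order WT, db/db 8w, db/db 16w, HFD. Its ranges did not overlap, and the log2 ratios were 2.20, 2.41, 2.13 and 1.49.

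The next 10 genes of the ranking were Atf3, Ifrd1, Gfpt2, Pim1, Fgl2, Cebpb, Sbno2, Bhlhe40, Socs1 and Ccnl1, with a smallest log2 ratio between 0.66 and 0.96. Gfpt2, an enzyme that feeds the synthesis of the amino sugar in hyaluronan, stood at 732 CPM in activated and 332 CPM in other stromal cells of WT, at 356 and 184 in db/db 8w, at 60.8 and 22.2 in db/db 16w and at 247 and 98.0 in HFD. Fgl2, a secreted and membrane protein of the fibrinogen family, stood at 1501 and 518, 576 and 131, 146 and 65.7, and 155 and 80.1 CPM in the same order. The values of db/db 16w rest on few cells: Ccl7 was held there by 8 of 48 activated cells, 1 of which held 41.9% of its UMIs, and Adamts4 and Myc by 6 cells each.

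Of the other genes of hyaluronan synthesis and binding, Ugdh was at least 2-fold higher in activated cells of WT, db/db 8w and HFD, and Has2 in db/db 8w. Of 11 listed genes 6 were measured in WT, of which 1 was at least 2-fold higher, 2 of 6 in db/db 8w, 0 of 5 in db/db 16w and 1 of 6 in HFD. Ugdh, the enzyme that makes UDP-glucuronic acid for hyaluronan, stood at 1055 CPM in activated and 401 CPM in other stromal cells of WT, at 703 and 267 in db/db 8w, at 72.9 and 62.3 in db/db 16w, and at 396 and 150.02 in HFD. Its log2 ratios of 1.37, 1.36, 0.20 and 1.34 show that db/db 16w stood apart, with 12 UMIs in its activated cells. Has2, the main hyaluronan synthase of many fibroblasts, stood at 50.1 and 20.998 CPM in WT, 58.0 and 16.8 in db/db 8w, 54.7 and 6.04 in db/db 16w, from 9 UMIs, and 38.6 and 15.6 in HFD. Ugp2, which makes the precursor that UGDH oxidises, had log2 ratios of 0.09, 0.04, −0.06 and 0.28. Vcan, a proteoglycan that binds hyaluronan, had log2 ratios of −0.14, −0.05, −0.13 and 0.57, and Cd44, a receptor for hyaluronan, of 0.23, 0.52, −1.35 (2 UMIs in activated cells) and 0.89. Itih5, a relative of the inter-alpha inhibitor heavy chains, had log2 ratios between −0.31 and 0.08.

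Both metallothioneins were at least 2-fold higher in activated cells of each library, the only measured genes of a list of 6 that were. Mt2 stood at 2483 CPM in activated and 351 CPM in other stromal cells of WT, at 1627 and 419.6 in db/db 8w, at 1562 and 725 in db/db 16w and at 267 and 88.6 in HFD, with log2 ratios of 2.79, 1.93, 1.10 and 1.49. HFD was lowest on both sides, and its activated cells were below the other stromal cells of the other 3 libraries. Mt1 stood at 4400.3, 4281, 6746 and 972 CPM in activated cells, against 920.0, 1135, 2975 and 421 CPM in other stromal cells. At 2000 UMIs per cell, Mt2 was found in 81.9% of activated and 35.3% of other stromal cells of WT, in 73.3% and 34.3% in db/db 8w, in 91.3% (23 cells) and 51.3% in db/db 16w and in 37.9% and 14.5% in HFD. The zinc importer Slc39a14 had log2 ratios of 0.82, 0.61 and 0.17 in WT, db/db 8w and HFD, and was not measured in db/db 16w.

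Among 21 chemokines and cytokines, genes for attractants of neutrophils and monocytes and for interleukin-6 were higher in the activated cells. At least 2-fold higher were 6 of 14 measured in WT, 5 of 15 in db/db 8w, 2 of 13 in db/db 16w and 4 of 16 in HFD, and in db/db 16w 3 were at least 2-fold lower. Ccl7, a monocyte chemokine, stood at 1100.1 CPM in activated and 108 in other stromal cells of WT, at 1345 and 142 in db/db 8w, at 784 and 120.2 in db/db 16w and at 154 and 57.2 in HFD. Ccl2, whose gene is next to Ccl7 on chromosome 11, stood at 1089 and 137, 1517 and 222, 66.9 and 155, and 291 and 86.2 CPM. It was thus higher in activated cells of WT, db/db 8w and HFD and lower in db/db 16w, where 10 of its 11 UMIs came from 1 cell and the log2 ratio was −1.10, or 0.33 with each cell weighted equally. Il6 stood at 129 and 10.4 CPM in WT, 109 and 8.01 in db/db 8w, 48.6 (8 UMIs) and 4.10 in db/db 16w and 159 and 18.0 in HFD, and its activated level in HFD was the highest. Cxcl10, a target of interferon, was 204 CPM in the activated cells of WT and 29.8, 6.08 and 33.3 CPM in those of db/db 8w, then db/db 16w, then HFD. The homeostatic chemokines Cxcl12 and Cxcl13 were about equal on both sides, with log2 ratios of −0.36 to 0.02 and of −0.55 to 0.20.

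Cells of the macrophage gate held such transcripts too, by a part that differed between genes and libraries. At 2000 UMIs per cell, Cxcl1 was found in 53.6% of activated, 11.8% of other stromal and 37.7% of macrophage-gate cells of WT, in 60.9%, 17.9% and 66.3% in db/db 8w, in 30.4% (23 cells), 4.61% and 7.44% in db/db 16w and in 58.9%, 25.5% and 36.7% in HFD. Il6 was found in 14.97%, 1.40% and 10.1% in WT, in 11.2%, 0.958% and 13.0% in db/db 8w and in 16.5%, 2.43% and 1.01% in HFD. Socs3 was found in 71.6%, 19.1% and 29.1% in WT and in 26.7%, 12.4% and 7.28% in HFD. It was found in 57.1%, 14.2% and 38.3% in db/db 8w and in 69.6% (23 cells), 11.1% and 8.46% in db/db 16w. For Il6 and Socs3 the macrophage gate thus stood below the other stromal cells in db/db 16w and HFD. Macrophages make such transcripts themselves, and the part of free RNA was not tested.

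Of the 18 listed acute-phase genes and NF-kB targets, which answer to TNF and interleukin-1, none of the acute-phase genes Saa3, Lcn2 and C3 was at least 2-fold higher in any library. At least 2-fold higher were 9 of 16 measured in WT, 9 of 17 in db/db 8w, 1 of 9 in db/db 16w and 0 of 16 in HFD. Saa3 was at least 2-fold lower in db/db 8w. The median log2 ratios were 1.14, 1.01, 0.63 and 0.40. Nfkbia, the inhibitor of NF-kB that NF-kB itself induces, stood at 2229 CPM in activated and 347 CPM in other stromal cells of WT, at 1519 and 306 in db/db 8w, at 407 and 216 in db/db 16w and at 326 and 242 in HFD. Its levels in the other stromal cells lay within 216 to 347 CPM, while those in activated cells spread from 326 to 2229. Irf1, a transcription factor of interferon responses, had log2 ratios of 2.18, 1.93, 1.88 and 0.01, and Bcl3, a nuclear cofactor of NF-kB, of 2.22, 1.75 and 0.65 in WT, db/db 8w and HFD, with 6 UMIs in db/db 16w. The complement gene C3 was among the listed genes that did not differ, with log2 ratios of 0.04 to 0.43. Of 10 receptors for such signals, none was at least 2-fold higher in any library, and Il17ra, a receptor chain for interleukin-17, had log2 ratios of 0.82, 0.65, 0.64 and 0.23.

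The genes of the gp130 and STAT3 response, through which interleukin-6 acts, differed at the targets and less at the receptors. At least 2-fold higher were 5 of 11 measured in WT, 4 of 11 in db/db 8w, 4 of 10 in db/db 16w and 1 of 11 in HFD. Socs3, the feedback inhibitor of this pathway, stood at 1697 CPM in activated and 204 CPM in other stromal cells of WT, at 977 and 131 in db/db 8w, at 650.3 and 119 in db/db 16w and at 175 and 69.3 in HFD. Its log2 ratios were 2.99, 2.80, 2.35 and 1.23, and the HFD activated cells were below the other stromal cells of WT. Cebpd, a transcription factor of the acute phase, had log2 ratios of 1.43, 1.49, 1.37 and 0.49. The shared receptor chain Il6st had log2 ratios of −0.30, −0.10, 0.06 and 0.05.

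Of 7 genes of prostanoid synthesis, Ptgs2 alone was at least 2-fold higher, in WT, db/db 8w and HFD. It encodes the inducible cyclooxygenase and stood at 692 CPM in activated and 89.0 CPM in other stromal cells of WT, at 209 and 35.5 in db/db 8w, at 12.2 and 0.724 in db/db 16w, from 2 and 3 UMIs, and at 107 and 21.4 in HFD. Ptges and Ptgis, which act on its product, had log2 ratios between −0.26 and 0.72 where they were measured. Of 10 genes of the glucocorticoid response, 2 were at least 2-fold higher in WT, 1 in db/db 8w and 0 for db/db 16w and HFD. The 1 in both was Errfi1, an inhibitor of the EGF receptor (log2 ratios 1.71, 1.40, 0.52 and 0.57). Among the other listed genes, the glucocorticoid targets Fkbp5 and Tsc22d3 had ratios between −0.68 and −0.16. The medians of the whole list were 0.01, −0.12, −0.08 and −0.14 in the order WT, db/db 8w, db/db 16w, HFD.

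Immediate-early genes are transcribed within minutes of many stimuli and are known to be raised also by tissue digestion. By median ratio and summed level they were higher in activated cells of each library, and by less in HFD. At least 2-fold higher were 15 of 17 measured in WT, 15 of 18 in db/db 8w, 14 of 17 in db/db 16w and 2 of 18 in HFD, with median log2 ratios of 1.69, 1.56, 1.55 and 0.44. Their summed level was 32002, 27664, 14520 and 19718 CPM in activated and 10312, 9284, 4769 and 14793 CPM in other stromal cells in the order WT, db/db 8w, db/db 16w, HFD, so HFD had the highest other stromal cells. Egr1 stood at 5164 and 1491, 4471 and 1235, 2309.6 and 663, and 4429 and 3465 CPM. Zfp36, whose protein destabilises cytokine mRNAs, stood at 3736 and 519 CPM in WT, 2657 and 495 in db/db 8w, 1295 and 322 in db/db 16w and 389 and 288 in HFD. Myc and Junb were the 2 genes past 2-fold in HFD. The part of tissue digestion in the results was not tested.

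Heat-shock genes, which report protein damage, did not follow the same order. Of 10 measured genes 0 were at least 2-fold higher in WT, 3 in db/db 8w, 4 for db/db 16w and 0 in HFD. Hspa1a stood at 1893 CPM in activated and 2558 CPM in other stromal cells of WT, at 2125 and 1628 in db/db 8w, at 1605 and 769 in db/db 16w and at 70.1 and 83.4 in HFD, so HFD was low on both sides. Dnajb1, its co-chaperone, had log2 ratios of 0.53, 1.42, 1.18 and 0.46.

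Matrix genes divided into a few that were higher and a majority that were not. Of 15 matrix proteases and inhibitors, Adamts1 and Adamts4 were at least 2-fold higher in WT, db/db 8w and db/db 16w, and Adamts4 alone in HFD. Adamts4 stood at 80.1 and 8.55, 187 and 18.3, 128 and 17.1, and 102 and 42.4 CPM in activated and other stromal cells in the order WT, db/db 8w, db/db 16w, HFD. Mmp2, a gelatinase, and Timp2, its inhibitor, had log2 ratios between −0.30 and 0.11. Of 15 myofibroblast genes and TGF-beta targets, 3 of 11 measured were at least 2-fold higher in WT, 4 of 14 in db/db 8w, 3 of 13 in db/db 16w and 1 of 14 in HFD. Among them were Thbs1 in each library and Ccn1, a matrix-associated signalling protein, in the libraries other than HFD. The contractile gene Acta2 was measured in db/db 16w only, with a log2 ratio of −0.96. None of the 11 collagens listed outside the rule differed by 2-fold in any library, and their medians were −0.29, −0.12, 0.05 and −0.05. Of 14 growth factors, Bmp2 was at least 2-fold higher in WT and db/db 8w, with Hbegf in db/db 8w, while Vegfa had log2 ratios of 0.46, 0.31, −0.14 and 0.13.

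Pi16, a marker of an early adipocyte progenitor in the connective sheath, stood at 1976 CPM in activated and 2298 CPM in other stromal cells of WT, at 1235 and 1322 in db/db 8w, at 139.8 and 69.5 in db/db 16w and at 559 and 448 in HFD. Of 9 markers of this state, 9, 9, 4 and 7 were measured in the 4 libraries in that order, with median log2 ratios of −0.14, −0.10, 0.31 and 0.37, and of 9 markers of committed preadipocytes, such as Col15a1 and Fabp4, 8, 9, 9 and 9, with medians of −0.24, −0.12, −0.05 and −0.12. No measured marker of either list passed 2-fold with 10 CPM added, and Pi16 in db/db 16w, at 23 UMIs, had a log2 ratio of 0.91. Of 7 markers of the Cilp, Eln and Apod state, 4 were measured in each library, with medians of −0.64, −0.17, −0.85 and −0.38, and Thbs4 in WT and Cilp in db/db 16w were at least 2-fold lower.

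**Figure D4:**
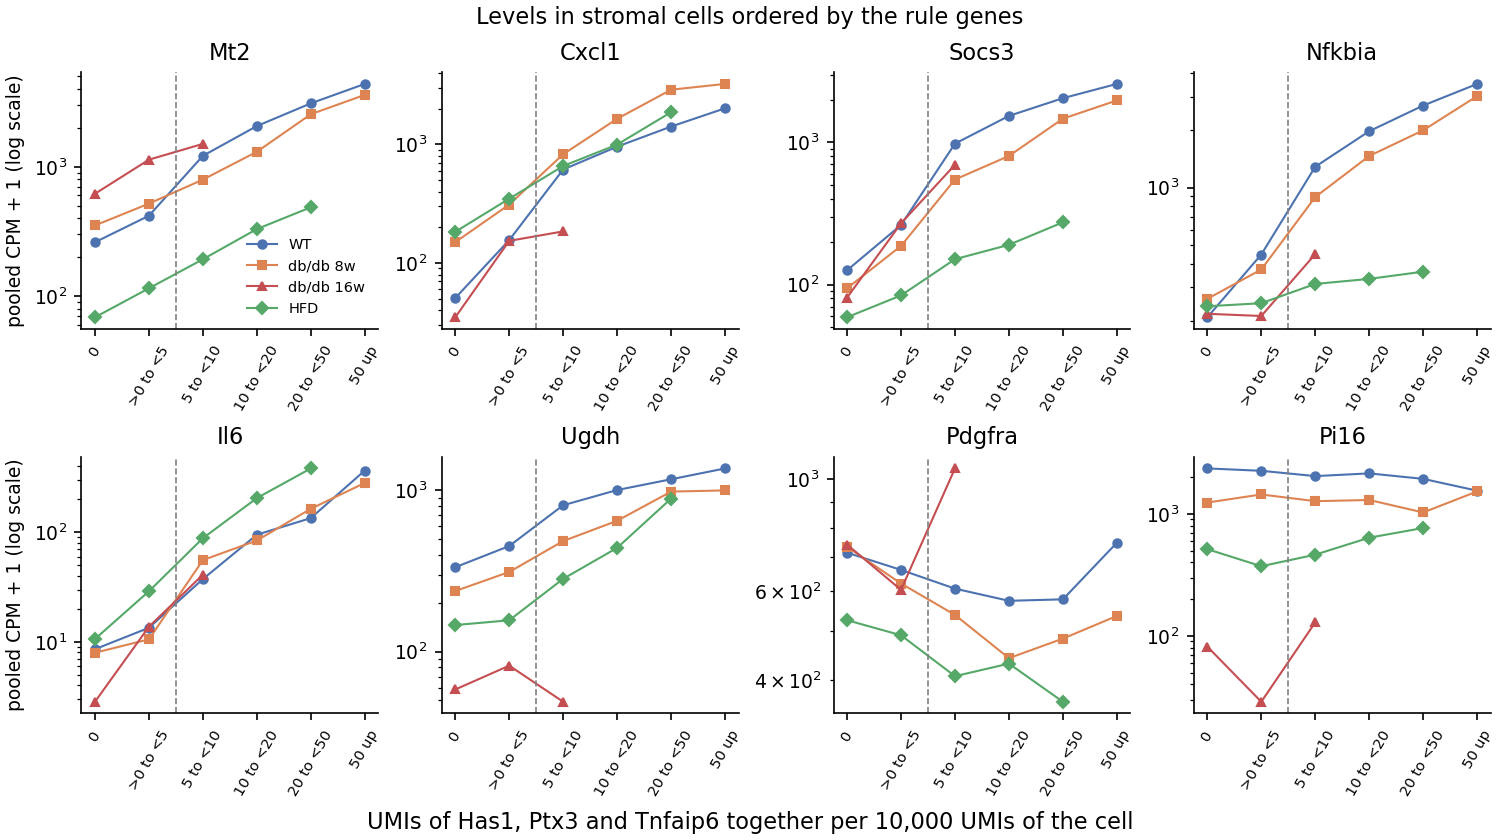
Pooled CPM plus 1 (y axis, log scale) of 8 genes in stromal cells grouped by the UMIs of Has1, Ptx3 and Tnfaip6 per 10000 UMIs (x axis), with 1 line per library and groups of at least 20 cells. The dashed line is the threshold of the rule. Mt2, Cxcl1, Socs3, Nfkbia and Il6 were higher in each successive group from above 0 in WT and db/db 8w, while Pdgfra and Pi16 were not.

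Within the stromal cells the levels of the leading genes went up with the rule genes on both sides of the threshold. In WT, Mt2 stood at 259.6 CPM in the 1669 cells with no UMI of the 3 genes, at 417 in the 1389 cells above 0 and under 5 per 10000, at 1214 in the 357 cells at 5 to under 10, at 2064 in the 374 cells at 10 to under 20, at 3096 in the 341 cells at 20 to under 50 and at 4376 in the 154 cells at 50 and over. In db/db 8w the same 6 groups stood at 350.5, 518, 795, 1306, 2550 and 3601 CPM. Il6 stood at 7.55, 12.4, 36.4, 94.1, 134 and 366 CPM in WT and at 6.94, 9.53, 54.7, 83.2, 163 and 282 CPM in db/db 8w. Ugdh stood at 333, 451, 807, 1003, 1170 and 1366 CPM in WT, and Lum, a fibroblast proteoglycan, at 534, 515, 423, 346, 315 and 287 CPM. Fos reached a plateau in WT, at 793, 1510, 3399, 4178, 4212 and 3570 CPM. In HFD, Mt2 stood at 67.4 CPM in 744 cells, 114 in 516, 191 in 168, 329 in 97 and 485 in 25 cells, and the 2 cells at 50 and over are not read. In db/db 16w 34 of the 48 activated cells lay at 5 to under 10, and no higher group reached 20 cells. Cells and genes within a library share their depth and free RNA, so these levels are a description with no test. Below the threshold the only step was from no UMI to above 0, and these groups differed in depth. Cells with no UMI had a median depth of 4536 UMIs in WT, against 8718 in those above 0 and under 5. The medians were 2678 and 6693 for db/db 8w. They were 2506 and 5004 for db/db 16w, then 4609.5 and 5494.5 for HFD. The part of depth in this step was not tested.

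No measured gene was at least 2-fold lower in the activated cells of all 4 libraries. By library, 315 of 5637 measured genes were so in db/db 16w, 4 of 6073 in WT, 8 of 6125 in db/db 8w and 7 of 6276 in HFD. The activated cells of db/db 16w held 164534 UMIs in all, against 11687499 in WT, so a low gene passes 2-fold there by a few UMIs. The part of this in the count was not tested. The 10 genes that ranked lowest over the libraries differed by less than 2-fold in at least 1 of them. They were Fgd4, Fmo2, Cped1, Nr2c2, Abcc5, Podn, Abca9, Smoc2, Setd1b and Cyp2d22. Smoc2, a matricellular protein, stood at 77.0 CPM in activated and 114 CPM in other stromal cells of WT, at 237 and 392 in db/db 8w, at 286 and 362 in db/db 16w and at 426 and 654 in HFD. Fmo2, a drug-metabolising oxygenase, stood at 45.3 and 86.5, 116 and 156, 79.0 and 230.1, and 41.5 and 63.6 CPM in the same order.

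To compare the groups, the activated cells of each db/db library and of HFD were set against those of WT, and the same ratio was taken in the other stromal cells. The 3 ratios share the WT library. Of 5677 genes measured in all 3, 84 were at least 2-fold higher than in WT in each (1.48%) and 73 at least 2-fold lower (1.29%). Without db/db 16w, 129 were higher and 81 lower in db/db 8w and HFD, and without HFD 98 were higher and 99 lower. Of the 84 genes, 64 were at least 2-fold higher in the other stromal cells too (76.2%) and 84 had the same direction, and of the 73 genes, 47 were at least 2-fold lower (64.4%) and 72 had the same direction. Most of these differences were thus found on both sides of the rule, and in 1 library per group their source cannot be told apart from the library.

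**Figure D5:**
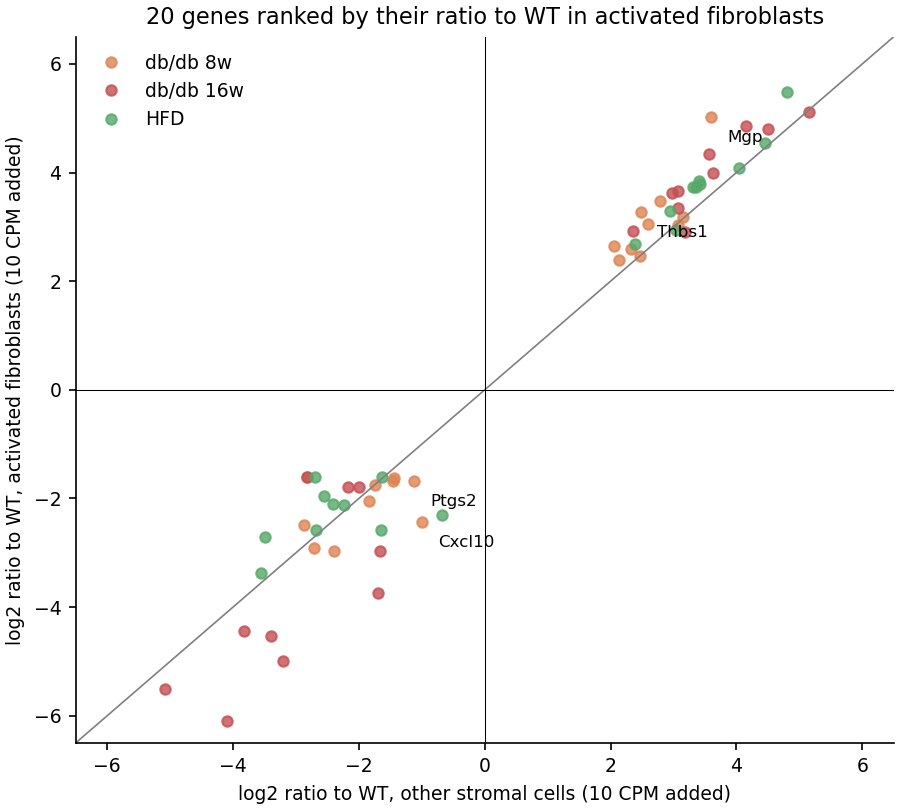
Log2 ratio to WT in activated fibroblasts (y axis) against the same ratio in other stromal cells (x axis), 10 CPM added, for the 10 genes higher and the 10 lower than WT that ranked first, with 1 colour per library. The grey line marks equal ratios. Cxcl10 and Ptgs2 lie below it in each library, with a lower ratio in the activated cells, and both ratios share the WT library. In db/db 16w the activated cells held 2 Ptgs2 UMIs and 1 Cxcl10 UMI, so the place of these points depends on the added 10 CPM.

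Higher than in WT ranked Mgp, Fabp4, Col15a1, Sparcl1, Thbs1, Timp1, Bgn, Fbln7, Col8a1 and Col18a1, most of which encode matrix proteins, and of which Timp1 and Bgn lie on the X chromosome. Fabp4, a fatty-acid carrier, stood at 183 CPM in activated cells of WT, 1753 in db/db 8w, 6698 for db/db 16w and 4503 in HFD. In other stromal cells Fabp4 stood at 231, 2136, 8552 and 5277 CPM in the same order. The number of cells set apart by the endothelial transcripts of the rule also differed between libraries. WT held 12 such cells and db/db 8w 71, while db/db 16w held 1411 and HFD 1299. The part of RNA from such cells in the Fabp4 levels was not tested. Mgp, a matrix protein that inhibits calcification, stood at 23.8, 1088, 972 and 1494 CPM in activated and at 55.7, 780.3, 1157 and 1816 CPM in other stromal cells. In db/db 16w 1 cell held 40.6% of the 160 Mgp UMIs. Thbs1 stood at 43.1, 501, 395 and 397 CPM in activated cells and at 13.4, 120.2, 109 and 183 CPM in other stromal cells, so it was higher than WT on both sides of the rule and higher in activated cells in each library. The collagens outside the rule had median log2 ratios to WT of 1.61, 2.50 and 1.78 in activated and 1.498, 2.09 and 1.503 in other stromal cells of db/db 8w, then db/db 16w, then HFD, against 0.03, −0.08 and 0.11 for all measured genes in activated cells. Of 11 measured collagens, 7 were among the 84 genes.

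Lower than in WT ranked Cxcl13, Plac8, Il1r2, Cxcl10, Lvrn, Plpp3, Ptgs2, Opcml, Mmp27 and Ttr. Cxcl13, a chemokine for B cells, stood at 1551 CPM in the activated cells of WT, 188 in db/db 8w, 24.3 (4 UMIs) for db/db 16w and 140.3 in HFD, and at 1522, 281, 35.2 and 120.4 CPM in other stromal cells. Ptgs2 and Cxcl10 were named above for their levels. Plac8 and Il1r2, a decoy receptor for interleukin-1, had 0 UMIs in the 48 activated cells of db/db 16w, where 3 UMIs would be 18.2 CPM. Ttr rested on 1 WT cell, which held 231 of its 237 UMIs. The Pi16 list had median log2 ratios to WT of −0.67, −3.51 and −1.27 in activated and −0.69, −3.25 and −1.72 in other stromal cells of db/db 8w, then db/db 16w, then HFD.

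The median log2 ratio of the NF-kB list in activated cells to WT was −0.18 in db/db 8w, −1.498 for db/db 16w and −0.80 in HFD, against 0.14, −0.63 and 0.21 in other stromal cells, and that of the gp130 list was −0.46, −0.93 and −0.93, against −0.32, −0.73 and −0.63. The chemokine list stood at 0.29, −1.505 and 0.06 in activated and at 0.26, 0.15 and 0.04 in other stromal cells. The db/db 16w medians of the NF-kB and chemokine lists rest in part on few UMIs in its 48 activated cells. Zc3h12a and Cxcl2 had 0 UMIs there, Relb and Cxcl10 1 and Tnfaip3 and Cxcl13 4, while Nfkbia had 67 and Ccl7 129. With 1 UMI at 6.08 CPM, the ratios of the low genes depend on the added 10 CPM. In HFD, Zfp36 had a log2 ratio to WT of −3.23 in activated and −0.83 in other stromal cells, Socs3 of −3.20 and −1.43, and Nfkbia of −2.74 and −0.50, while Il6 had ratios of 0.29 and 0.46. In db/db 8w the ratios were −0.49 and −0.06 for Zfp36, −0.79 and −0.60 for Socs3, −0.55 and −0.17 for Nfkbia and −0.21 and −0.18 for Il6. These differences were not tested, with 1 library per group.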

How the data were processed

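Single-cell RNA-seq (10x Genomics 3′ chemistry) had been made from the SVF of BAT in 4 libraries, 1 per group, each a pool of 3 mice by the study's figure legends. The deposited values are raw counts of UMIs per gene and barcode, made by the authors with Cell Ranger on mm10. The submitters' processing notes give version 7.1.0 and the file headers 6.0.0. The barcodes had been called as cells before deposit. All 32285 genes were read, and 99.6% of the gene IDs were found in GENCODE M21.

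Barcodes with more than 250 and fewer than 6000 genes, more than 500 and fewer than 30000 UMIs and under 15% mitochondrial UMIs were kept. Activated and other stromal cells were divided by the rule of the report, UMIs were summed per library and side, and log2 ratios of CPM were taken with 10 CPM added. A gene was measured at 20 CPM and 10 UMIs on 1 side, and 2-fold was the limit for naming. Cells are not replicates and each group was 1 library, so no p-value was computed. Shares carry exact Clopper-Pearson and levels exact Poisson 95% intervals, which cover counting error only. A level of 0 was read against a floor of 3 UMIs. For shares of cells with a UMI, cells were thinned at random to 2000 UMIs and shallower cells left out. Doublets were predicted with Scrublet in scanpy 1.11.5 (highest scores, at 0.8% per 1000 barcodes). The named genes were those of 31 lists (288 genes), the 20 genes with the largest smallest ratio over libraries, the 10 lowest, and the 10 highest and 10 lowest against WT, without mitochondrial and ribosomal-protein genes, the genes of the rule and its gates, Xist, Tsix and 4 genes of the Y chromosome. Other genes of the X chromosome were kept. The members and lists were chosen with earlier results of these data known, and the alternatives without the db/db 16w or the HFD library were chosen after seeing the data. Scripts were tested on simulated counts. Python 3.11.15, numpy 2.4.6, scipy 1.17.1 and pandas 2.3.3 were used. The values of 1 gene of the lists are not reported here.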

Additional observations from a re-analysis of the deposited data

Results flagged for a closer look

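Ccl2, a monocyte chemokine, differed in direction between the libraries. Its log2 ratio of activated to other stromal cells was 2.90 in WT, 2.72 for db/db 8w and 1.65 in HFD, and −1.10 in db/db 16w, where 2 of 48 activated cells held its 11 UMIs. Cxcl2, a neutrophil chemokine, had a log2 ratio of 1.41 in WT and −1.64 in db/db 16w, where the activated cells held 0 UMIs, so that its ratio there is no bound. Both differences between libraries were not tested.

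Stromal barcodes over the mitochondrial limit, which the report left out, also held the 3 genes of the rule. Of these barcodes, 36.2% in WT (318 of 879), 12.5% in db/db 8w (301 of 2409) and 9.08% in HFD (101 of 1112) reached 5 UMIs per 10000, and 0 of 3 did in db/db 16w.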

How the results depend on the processing

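No value turned direction among the shares, the counts and the ranked genes. The held-out difference of Has1 in db/db 16w did, within its interval. It was 2.32 points at 2000 UMIs and −0.203 points at 1000 UMIs (0 of 66 cells against 2 of 983). WT had the highest share and db/db 16w the lowest under each alternative. After thinning to 2000 UMIs the shares were 40.6% in WT, 27.8% in db/db 8w, 11.6% for db/db 16w and 32.8% in HFD. At a threshold of 10 per 10000 they were 20.3%, 10.2%, 1.19% and 7.99%, and with at least 2 UMIs of the 3 genes 26.5% in WT, 12.9% in db/db 8w and 2.30% for db/db 16w. Of all quality-passing cells they were 20.6%, 8.16%, 0.823% and 5.35%. Without a mitochondrial limit db/db 8w stood at 15.4% and HFD at 14.8%, with a limit of 10% HFD stood at 21.9%, and in cells of at least 2000 UMIs db/db 16w stood at 2.94%. At 4000 UMIs the held-out difference of Has1 was 29.7 points in WT and 21.3 points in HFD. With 1 CPM added, 152 genes were at least 2-fold higher in activated cells of db/db 16w and 49 in HFD, and 122 were lower than WT in all 3 libraries. With each cell weighted equally the count in db/db 16w was 187, and against stromal cells with no UMI of the 3 genes the count in HFD was 44. Without db/db 16w, 25 genes were higher in activated cells of the other 3 libraries and 129 were higher than WT in both others, and without HFD 39 were higher in activated cells. Of these results 93 values stayed within the limits set for them and 29 moved. The Has1 difference of db/db 16w at 1000 UMIs was among those that stayed. Of 330 values of the ranked genes under alternatives, 319 stayed and 11 moved, and of 392 list medians 389 stayed and 3 moved. Of single list genes, Ccl2 and Cxcl9 in db/db 16w turned from −1.10 to 0.33 and from −1.35 to 0.62 with each cell weighted equally. The causes were not tested. No paired analysis was possible because each group was 1 library. The 48 activated cells of db/db 16w limit its values most, where 1 UMI is 6.08 CPM.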
